A study of Homo sapiens with 6 samples.

Results

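Chromatin accessibility was examined at 10 genes for inflammatory cytokines and chemokines, out of 20176 protein-coding genes. The genes were taken by name, and no measured value enters the rule, although the list was chosen with earlier results of these data known. The members are IL6, CXCL8, CXCL1, CXCL2, CXCL3, IL1A, IL1B, LIF, CSF2 and IL11. A gene's window ran from 50 kb upstream of the gene to 20 kb past its end, and its promoter was the sequence within 1 kb of any annotated start site. ATAC-seq, in which a transposase inserts adapters into open DNA, was performed on MDA-MB-231, an established triple-negative breast cancer cell line. The 3 Parental libraries came from unedited cells. The 3 SAP30-KO1 libraries came from cells that had lost SAP30, part of the SIN3 corepressor complex, to knockout with a CRISPR vector carrying puromycin resistance. Cells given the vector were treated with puromycin, and SAP30-KO1 is a pool grown from a number of individually isolated knockout cells. Loss of SAP30, the vector, the drug treatment and the choice of those cells therefore cannot be told apart here.

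The members act as soluble messengers. IL6, LIF and IL11 are cytokines that signal through the shared receptor subunit gp130 (IL6ST) to JAK kinases and STAT3. CXCL1, CXCL2, CXCL3 and CXCL8 are chemokines that draw neutrophils through CXCR1 and CXCR2. IL1A and IL1B encode the agonists of the interleukin-1 receptor, which activates NF-κB in the receiving cell. CSF2 encodes GM-CSF, a growth factor of granulocytes and macrophages. Transcription of these genes is classically turned on by NF-κB, AP-1 and C/EBP factors, and basal-like breast cancer cells are known for secreting several of the products.

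The DNA of the members is shown first, because the open sites described further on lie in it. Each sequence is from the GRCh37 reference and reads 5′ to 3′ on the strand of the gene, with motif matches in capitals. The motifs were the NF-κB consensus, the AP-1 motif TGANTCA, the C/EBP motif TTGCNNAA and the TEAD motif GGAATG, each searched on both strands. The promoters of IL6, CXCL8 and CSF2 are given as 200 bases each. These end just before the first of the start sites clustered at the main promoter. The 3 promoters were chosen because they show different sets of exact matches, and a near match is not marked.
IL6 promoter (chr7:22766566-22766765, plus strand, C/EBP then NF-κB): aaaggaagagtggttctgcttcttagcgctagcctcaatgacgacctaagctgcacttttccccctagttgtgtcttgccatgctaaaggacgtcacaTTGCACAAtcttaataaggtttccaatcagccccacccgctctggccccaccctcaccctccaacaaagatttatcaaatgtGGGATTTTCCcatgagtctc
CXCL8 promoter (chr4:74606036-74606235, plus strand, AP-1): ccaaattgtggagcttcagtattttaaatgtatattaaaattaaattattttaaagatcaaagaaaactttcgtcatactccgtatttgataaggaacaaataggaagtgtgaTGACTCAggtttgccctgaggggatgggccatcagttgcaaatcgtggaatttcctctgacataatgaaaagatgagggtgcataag
CSF2 promoter (chr5:131409282-131409481, plus strand, no match): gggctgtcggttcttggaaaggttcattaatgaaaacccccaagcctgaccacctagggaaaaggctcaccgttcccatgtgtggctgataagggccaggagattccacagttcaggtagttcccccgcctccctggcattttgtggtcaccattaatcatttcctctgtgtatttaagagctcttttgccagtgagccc

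The 3 closely related chemokine genes each held the same NF-κB match just upstream of the start site, shown as pieces of 30 bases. Its first base lay 79 bp before the canonical start site in CXCL1, 78 bp in CXCL2 and 79 bp in CXCL3, and in each gene a second match on the other strand overlapped it.
CXCL1 (chr4:74735021-74735050, plus strand): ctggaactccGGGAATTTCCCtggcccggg
CXCL2 (chr4:74964971-74965000, minus strand): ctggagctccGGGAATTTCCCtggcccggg
CXCL3 (chr4:74904466-74904495, minus strand): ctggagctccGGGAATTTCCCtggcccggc

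Within 200 bases before the canonical start site, the NF-κB consensus was present in 4 of the 10 members (IL6, CXCL1, CXCL2 and CXCL3), against 4.82% of 19894 protein-coding promoters. AP-1 was present in 3 (CXCL8, IL1A and IL11), against 3.72%. C/EBP was present in 2 (IL6 and CXCL2), against 5.39%, and TEAD in 0, against 7.43%. A match describes the letters and does not show that a factor was bound. A missing match does not show that a binding site is absent, since only exact matches to these strings were searched. The 200 bases before CXCL1, CXCL2 and CXCL3 were 77.2% to 80.8% identical to each other, and 44.5% to 46.3% identical to CXCL8. Such similarity can move reads between copies. Of the 75-base words (the length of a read) in the open promoter site, 12% in CXCL2 and 12% in CXCL3 occurred more than once in the CXCL cluster, and 0 in CXCL1 and CXCL8, so the values of CXCL2 and CXCL3 carry that uncertainty.

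The deposited lists give, for each library, the summit of every peak with a score, the −log10 of the peak's q-value. Lists held 29762 to 40650 summits. Each list was called by itself, so its scores have a scale of their own, and each score was expressed as its percentile from 0 to 100 within its library, with 0 where a library had no summit. Read counts are not in the lists, so the depth behind a value is unknown, and in bulk cells a site open in fewer cells cannot be told apart from one less open in each cell. With 3 libraries against 3, the exact permutation test cannot give a p below 0.1. Counts therefore use the condition that the groups did not overlap, and are read against the share of all features that met it. Of 6 basal and mesenchymal marker genes, all had a promoter summit in at least 1 library and 4 had one in all libraries. Of 6 luminal genes, 5 had one in at least 1 library and 0 in all libraries. The leukocyte genes PTPRC and CD3E and the endothelial genes CDH5 and TEK were at 0 in every library, and CD14 had a summit in 5. SAP30 loss itself cannot be read from summit lists.

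The members' promoters ranged from high percentiles to no summit in any library. CSF2 and CXCL8 stood high in every library, CXCL2 and CXCL3 were present in every library at middle levels, CXCL1 and IL6 were weak and missing from some libraries, and IL1A, IL1B, LIF and IL11 had no promoter summit at all. A missing summit does not show closed chromatin, since the promoter of RPL28, a ribosomal protein gene, also lacked one in 3 of the 6 libraries. The 4 without a summit are 40% of the members, against 37.7% of all protein-coding genes. The 4 with a summit in all 6 libraries are also 40%, against 34.5%.

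CSF2, the GM-CSF gene, had the highest mean promoter percentile of the 10. Its percentile was 81.7, 93.8 and 85.8 in Parental and 78.8, 87.2 and 86.2 in the SAP30-KO1 libraries. The groups overlapped and their means differed by −3.06 (87.1 ± 6.18 against 84.0 ± 4.58, SD, n = 3 each, exact permutation test, two-sided, p = 0.6). Over the 6 libraries its mean of 85.6 was above 85.9% of the 12572 protein-coding promoters with a summit.

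CXCL8, which encodes interleukin-8, came next. Its percentile was 64.1, 81.0 and 77.9 in Parental and 92.0, 75 and 72.4 in the SAP30-KO1 libraries. One knockout library stood above all others and the remaining libraries were mixed, with a difference of 5.48 that lay within the spread (exact permutation test, two-sided, p = 0.6). That direction rested on SAP30-KO1 replicate 1, without which the difference was −0.63. The summit lay 0.12 kb upstream of the canonical start site, beside the AP-1 match printed above.

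The related chemokines CXCL1, CXCL2 and CXCL3 had overlapping groups, with mean differences of either sign. CXCL1 was at 8.23, 36.6 and 33.6 in Parental and at 0, 19.8 and 2.16 in the SAP30-KO1 libraries. The lowest values were those of knockout libraries, but Parental replicate 1 lay below SAP30-KO1 replicate 2, so the groups overlapped (difference −18.9, exact permutation test, two-sided, p = 0.2). Without either of those libraries the groups no longer overlapped, with differences of −27.8 and −25.1. CXCL2 was at 46.8, 56.7 and 38.4 in Parental and at 56.9, 71.4 and 45.4 in the SAP30-KO1 libraries. Here the shift went the other way, and the groups again overlapped (difference 10.6, exact permutation test, two-sided, p = 0.4), except without SAP30-KO1 replicate 3, when the difference was 16.8. The strongest CXCL2 summit was also within 1 kb of a start site of another annotated gene.

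CXCL3 was the most variable promoter. Its percentile was 81.3, 55.7 and 13.9 in Parental and 18.1, 38.2 and 67.3 in the SAP30-KO1 libraries. Both groups ran from low to high, and the difference of −9.12 changed sign to 6.37 without Parental replicate 1 and to 2.44 without SAP30-KO1 replicate 1 (exact permutation test with all libraries, two-sided, p = 0.8). Its range over the 6 libraries was 67.4, and the median range of the 2120 promoters with a mean percentile of 40 to 60 was 59.0, so wide scatter is usual for promoters at that level. For CSF2 the range was 15.0, beside a median of 13.9 for promoters with a mean above 80.

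IL6 had a promoter summit in 3 of the 6 libraries. It was at 0, 0 and 29.6 in Parental and at 0, 36.5 and 44.7 in the SAP30-KO1 libraries. The strongest of these summits also lay within 1 kb of start sites of IL6-AS1 and STEAP1B, so it cannot be assigned to IL6 alone. A summit was called in 1 Parental and 2 SAP30-KO1 libraries, and the groups overlapped at 0 (difference 17.2, exact permutation test, two-sided, p = 0.4). Without SAP30-KO1 replicate 1 they did not overlap, with a difference of 30.7. IL6 lies on chromosome arm 7p, where loci present in all 6 libraries had a median difference of 3.42 (432 loci), against 0.17 over all arms. With percentiles taken within each arm, the promoter's difference was 14.1.

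**Figure D1:**
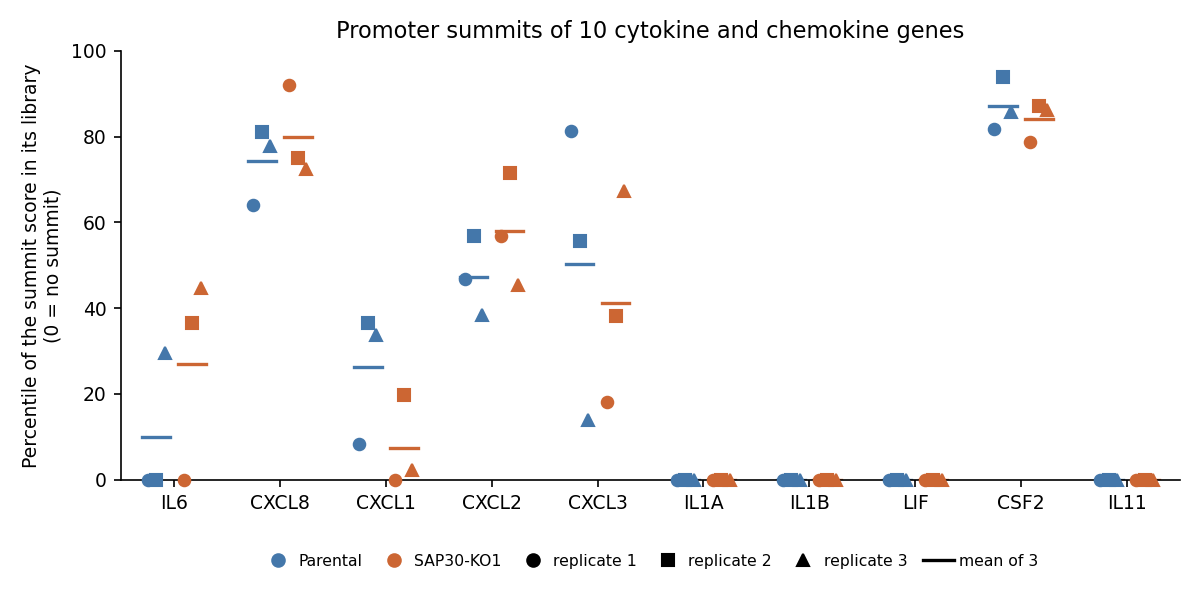
Percentile of the highest promoter summit of each of the 10 genes in each library. The vertical axis is the percentile of the score within the library, with 0 for no summit; colour gives the group, marker shape the replicate, and the horizontal bar is the mean of 3 libraries. CSF2 lies between 78.8 and 93.8 in all libraries, 4 genes lie at 0 throughout, and in no gene with a summit are the groups apart.

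Across the list, the order of mean promoter percentile over the 6 libraries was CSF2 (85.6 ± 5.14, SD, n = 6), CXCL8 (77.1 ± 9.32), CXCL2 (52.6 ± 11.6), CXCL3 (45.7 ± 27.1), IL6 (18.5 ± 20.8) and CXCL1 (16.7 ± 15.8). CXCL8 was above CXCL2 in all 6 libraries. CSF2 was above CXCL8 in 5, CXCL3 above IL6 in 5, CXCL2 above CXCL3 in 4 and IL6 above CXCL1 in 2, so neighbours other than CXCL8 and CXCL2 changed places between libraries. The member promoters with non-overlapping groups numbered 0 of 6 in the lower direction and 0 of 6 in the higher, where 4.57% and 6.01% of all 12572 promoters met the condition. The mean was lower in SAP30-KO1 for 3 members and higher for 3, and the median difference was 1.21, against 0.67 for all promoters.

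The windows of the 10 genes held 35 open sites, after overlapping windows of 250 bp on each side of a summit had been merged over the libraries. Of these, 6 were the promoters above and 29 were distal, of which 20 were intergenic, 4 intronic and 5 in the promoter of another gene. A summit in all 6 libraries was found at 11 sites (31.4%, against 28.9% of all 56419 sites), and in 1 library only at 11 (31.4%, against 28.5%). How often a site was found again followed its score. Among all sites, 6.15% of those whose best percentile was 40 to 60 were found in all libraries, and 86.3% of those above 80. Each of the 8 member sites that passed 80 in a library was found in all 6.

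**Figure D2:**
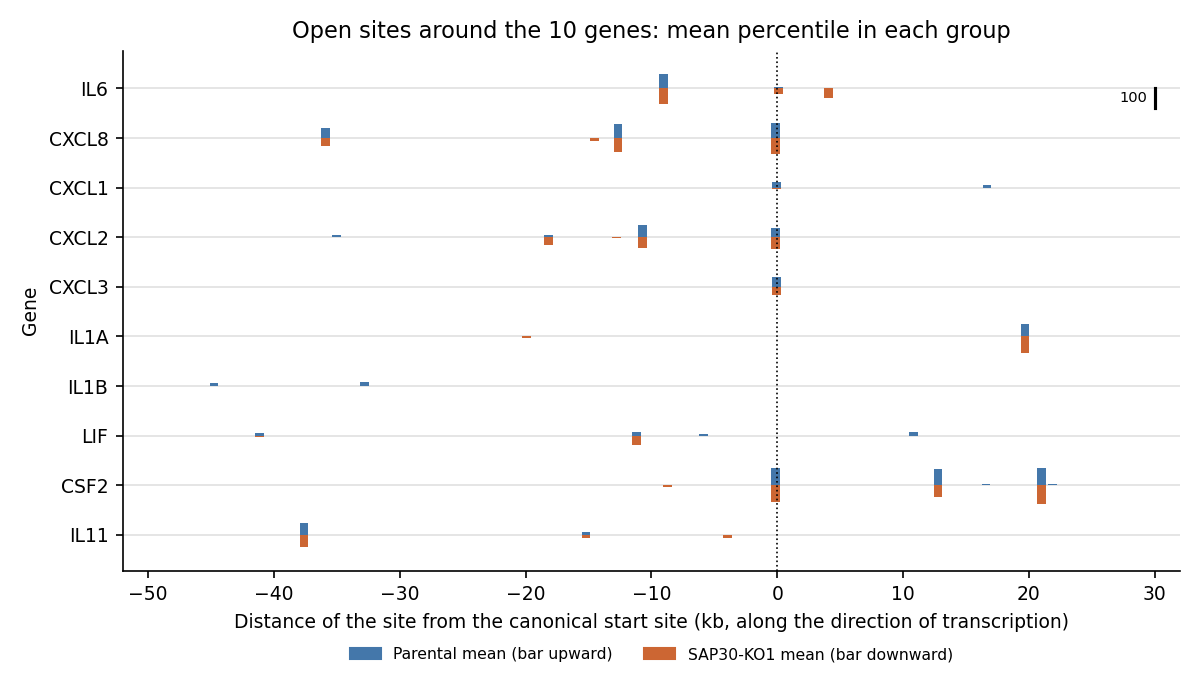
Open sites around the 10 genes, placed by distance from the canonical start site in kb along the direction of transcription (dotted line, 0). The bar upward is the mean percentile of the 3 Parental libraries and the bar downward that of the 3 SAP30-KO1 libraries, with the scale bar at the upper right standing for 100. CSF2 has tall bars at its promoter and at 12.8 and 21 kb, CXCL3 has its promoter alone, and IL1B has only short upward bars.

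The groups did not overlap at 3 of the 35 sites. SAP30-KO1 was lower at 1 and higher at 2, where 4.26% and 5.86% of all sites met the condition. None of the 3 passed adjustment over all sites (exact permutation test, two-sided, p = 0.1 and adjusted p = 0.988 for each). Median difference over the 35 sites was −0.091, against 0.28 for all sites. The 3 sites are a CSF2 site 21 kb downstream of the start, an IL6 site 4.10 kb downstream and a LIF site 10.8 kb downstream. Their sequences follow with 100 bases on each side of the strongest summit.
CSF2 +21 kb (chr5:131430401-131430601, plus strand, intergenic, NF-κB then AP-1): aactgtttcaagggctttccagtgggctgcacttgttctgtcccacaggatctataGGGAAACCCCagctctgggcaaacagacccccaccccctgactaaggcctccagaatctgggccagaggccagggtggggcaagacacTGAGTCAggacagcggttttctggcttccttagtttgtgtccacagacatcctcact
IL6 +4.10 kb (chr7:22770817-22771017, plus strand, intron of IL6, AP-1): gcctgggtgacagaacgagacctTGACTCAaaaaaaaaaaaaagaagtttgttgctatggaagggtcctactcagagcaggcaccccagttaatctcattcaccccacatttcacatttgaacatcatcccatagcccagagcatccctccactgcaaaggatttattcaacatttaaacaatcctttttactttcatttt
LIF +10.8 kb (chr22:30631827-30632027, minus strand, intergenic, AP-1): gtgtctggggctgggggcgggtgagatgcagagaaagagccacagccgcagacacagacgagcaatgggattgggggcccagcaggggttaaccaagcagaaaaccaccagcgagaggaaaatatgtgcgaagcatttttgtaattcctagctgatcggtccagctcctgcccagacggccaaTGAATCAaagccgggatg

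CSF2 had 3 sites that were present in all libraries, its promoter and those at 12.8 and 21 kb. The site at 21 kb was at 85.1, 81.5 and 89.8 in Parental and at 97.8, 97.0 and 95.1 in the SAP30-KO1 libraries. It was present in every library, and each knockout library stood above each Parental one (difference 11.1, 85.5 ± 4.20 against 96.6 ± 1.41, SD, n = 3 each). In the authors' scores, the −log10 of q was 11.2, 10.5 and 12.5 in the Parental and 19.1, 22 and 17.2 in the SAP30-KO1 libraries. The summits of the knockout libraries lay from 2 bp before to 39 bp past the centre of the printed sequence, between its NF-κB and AP-1 matches. That centre is itself the summit of SAP30-KO1 replicate 1. Summits of Parental replicates 1, 2 and 3 lay 54 bp past, 163 bp before and 25 bp before it. Only that of replicate 3 was between the matches. On arm 5q the median difference was −0.139 (1007 loci in all 6 libraries).

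The groups overlapped at the other CSF2 sites. The promoter overlapped between groups, as described above. The site 12.8 kb downstream was at 94.1, 72.2 and 73.1 in Parental and at 33.1, 92.5 and 55.3 in the SAP30-KO1 libraries. Its knockout values held both the lowest and nearly the highest library, and the difference of −19.5 lay within the spread (exact permutation test, two-sided, p = 0.4). The remaining 3 CSF2 sites were each found in a single library.

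At the IL6 site 4.10 kb past the start, no Parental library had a summit, and the SAP30-KO1 libraries were at 39.6, 43.9 and 56.9. The difference was 46.8, the largest of the 35 sites. The summits of SAP30-KO1 replicates 2 and 3 lay 36 bp apart in the last intron, and that of replicate 1 lay 384 bp further on, in the last exon. With percentiles taken within each arm the difference was 41.5. With narrower windows, of 100 bp on each side, the summits became separate sites, and the stronger of them differed by 33.6 with overlapping groups. The printed sequence carries a run of A bases next to the AP-1 match. IL6's highest distal site lay 9.03 kb upstream, in an intron of STEAP1B. That site was at 62.6, 59.7 and 90.9 in the Parental and at 84.1, 75.3 and 72.7 in the SAP30-KO1 libraries, so it was open in all 6 and overlapped between groups.

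The LIF site 10.8 kb past the start, beyond the end of the gene, was at 24.9, 22.3 and 10.1 in Parental and had no summit in any SAP30-KO1 library. All 3 Parental values were low in their libraries, and the difference was −19.1. With scores of at least 4 or with equally long lists the groups overlapped, at −1.42 and −9.27. LIF, the leukemia inhibitory factor, had its highest site 11.2 kb upstream. That site was at 25.2, 34.3 and 0 in the Parental and at 73.8, 50.7 and 18.4 in the SAP30-KO1 libraries, with overlapping groups (difference 27.8, exact permutation test, two-sided, p = 0.3).

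**Figure D3:**
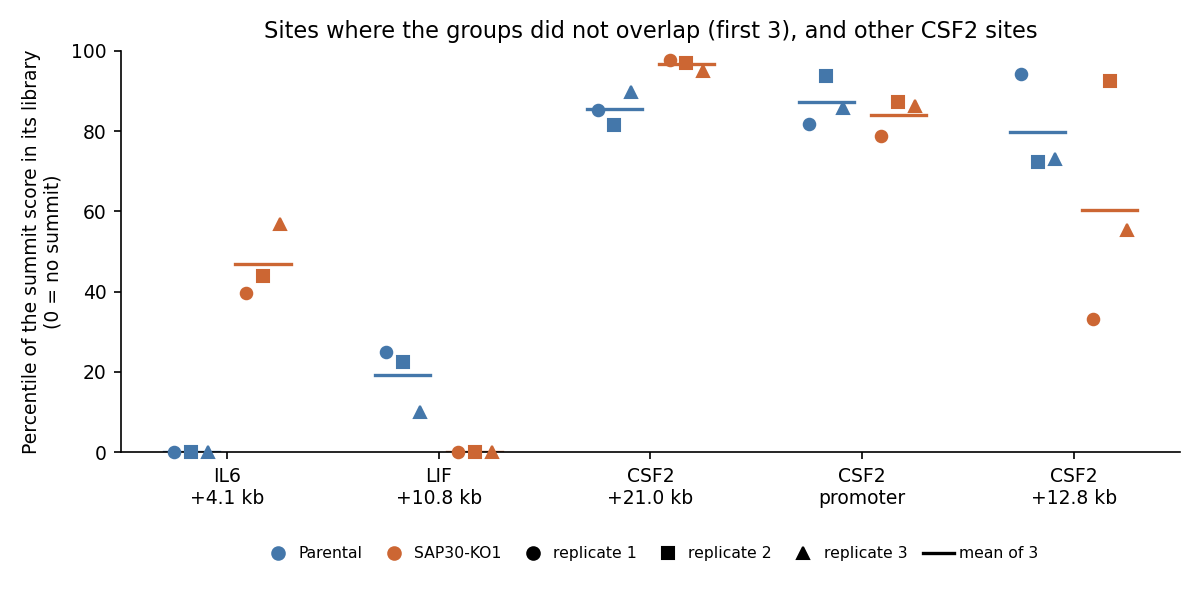
Percentile in each library at the 3 sites whose groups did not overlap, and at the CSF2 promoter and CSF2 site at 12.8 kb. Colour gives the group, marker shape the replicate, the bar is the mean of 3 libraries, and 0 stands for no summit. The IL6 and LIF sites differ by presence in 1 group alone, whereas the CSF2 site at 21 kb was present in all 6 libraries.

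Sites near the chemokine genes overlapped between groups. CXCL8 had its strongest distal site 12.7 kb upstream, at 49.1, 79.3 and 82.6 in the Parental and 61.6, 72.8 and 70.1 in the SAP30-KO1 libraries. A second CXCL8 site, 35.9 kb upstream, is shown because it held 2 AP-1 matches and a C/EBP match.
CXCL8 −35.9 kb (chr4:74570299-74570499, plus strand, intergenic): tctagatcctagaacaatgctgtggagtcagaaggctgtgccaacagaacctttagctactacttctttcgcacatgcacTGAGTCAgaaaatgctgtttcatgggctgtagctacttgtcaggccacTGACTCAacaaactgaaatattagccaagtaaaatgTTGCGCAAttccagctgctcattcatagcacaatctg
It was at 51.1, 64.1 and 39.8 in Parental and at 0, 54.0 and 69.2 in the SAP30-KO1 libraries. One knockout library lacked it and another had the highest value of all. CXCL2's strongest distal site, 10.7 kb upstream, was at 72.7, 56.3 and 51.2 in the Parental and 30.5, 71.1 and 62.1 in the SAP30-KO1 libraries. CXCL1's 2 distal sites were found in Parental replicate 3 alone, the higher at 37.6, and CXCL3 had no distal site. The median difference on arm 4q, which carries all 4 chemokine genes, was −1.07.

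The interleukin-1 genes had no promoter summit and few other sites. IL1B, which encodes interleukin-1β, had 1 summit in each Parental library and 0 in each SAP30-KO1 library. The count per window did not overlap (exact permutation test, two-sided, p = 0.1), a condition met in the lower direction by 1.79% and in the higher by 2.53% of 18248 gene windows with a summit. The Parental summits were not at one site: replicate 2 had one 32.8 kb upstream at 59.7, and replicates 1 and 3 had one 44.8 kb upstream at 37.2 and 8.69. IL1A, which encodes interleukin-1α, had its strong site only at the promoter of its neighbour CKAP2L, 19.7 kb from the IL1A start. That promoter was at 41.3, 81.9 and 64.5 in the Parental and 66.2, 91.3 and 87.0 in the SAP30-KO1 libraries, with overlapping groups. IL11 was of the same kind, as its highest site was the UBE2S promoter 37.6 kb upstream, at 50.3, 54.6 and 73.7 in the Parental and 62.1, 73.2 and 50.1 in the SAP30-KO1 libraries.

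The members' windows together held 25, 19 and 21 summits in Parental and 15, 21 and 21 in the SAP30-KO1 libraries. The difference of −2.67 lay within the spread (21.7 ± 3.06 against 19 ± 3.46, SD, n = 3 each). With the same number of top-ranked summits taken from each library the difference was −0.333, and with scores of at least 4 it was 0.333. The median window of the members held 2 summits, as did the median window of all protein-coding genes.

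**Figure D4:**
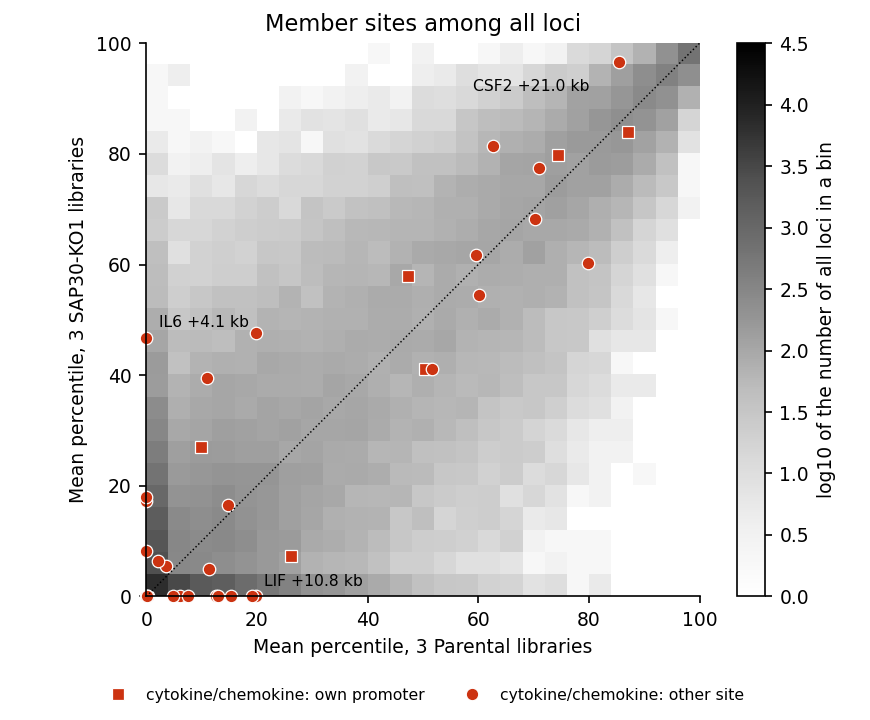
Mean percentile of each site in the 3 Parental libraries (horizontal) and the 3 SAP30-KO1 libraries (vertical). Grey squares give the number of all sites in a bin on a log10 scale, red squares are the members' own promoters, red circles their other sites, and the dotted line marks equal means. Member sites lie on both sides of the line, with 18 of 35 lower and 17 higher in SAP30-KO1.

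Within 150 bases on either side of the strongest summit, the NF-κB consensus was present at 6 of the 35 member sites (17.1%), against 4.97% of all sites. At 3 of these it was the printed promoter match of CXCL1, CXCL2 or CXCL3, whose promoters resemble each other and so are not independent instances. The others were the CSF2 site at 21 kb, a CXCL8 site 14.5 kb upstream and a CSF2 site at 21.9 kb. The last 2 were each found in 1 library. The match in the IL6 promoter lay outside that span around the promoter's summit. AP-1 was present at 10 (28.6%, against 29.6%), C/EBP at 5 (14.3%, against 13%) and TEAD at 6 (17.1%, against 21.1%). Each of the 3 sites with non-overlapping groups held an AP-1 match. These shares are descriptions of a small list.

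Receptors of the members were compared next, in a list of 11 genes. A promoter summit was found for 6 of them and was missing in every library for 5 (45.5%, against 37.7% of all protein-coding genes). Of the 6, the groups did not overlap at 0 in the lower and 1 in the higher direction, beside 4.57% and 6.01% of all promoters. IL11RA, the IL11 receptor subunit, was at 0, 24.4 and 19.0 in the Parental and at 68.6, 54.4 and 68.2 in the SAP30-KO1 libraries (difference 49.3). All knockout libraries stood well above the Parental ones, on an arm, 9p, with a median difference of 1.28. IL1RAP, the accessory subunit of the interleukin-1 receptor, had the highest promoter percentiles of the receptors, between 98.4 and 99.9 in all libraries. IL6ST, the shared gp130 subunit, ranged from 49.1 to 88.3 and overlapped. CXCR1, CXCR2, IL1R2, CSF2RA and CSF2RB, receptor genes used mainly by leukocytes, had no promoter summit.

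Among 32 other cytokine and chemokine ligands, 18 had no promoter summit (56.2%, against 37.7% of all protein-coding genes), including TNF, CCL2, CCL5, CXCL10 and CSF3. Of the 14 with one, groups did not overlap at 2 in the lower and 0 in the higher direction, beside 4.57% and 6.01% of all promoters. IL18, an interleukin-1 family cytokine, was at 65.9, 87.4 and 84.2 in the Parental and at 49.0, 53.3 and 0 in the SAP30-KO1 libraries (difference −45.1). CLCF1, a ligand of the IL6 family, was at 25.3, 52.6 and 41.4 in the Parental and at 0, 0 and 9.81 in the SAP30-KO1 libraries (difference −36.5). Both genes lie on arm 11q, where the 454 loci present in all libraries had a median difference of −14.7, and with percentiles taken within each arm the differences were −35.4 and −32.0. IL15 and IL7, lymphocyte growth factors, had the highest promoters, between 79.2 and 89.0 and between 66.3 and 86.1, and overlapped.

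In a list of 13 regulators of the pathway, 11 had a promoter summit in at least 1 library and 5 had one in all 6 (38.5%, against 34.5% of all protein-coding genes). The groups did not overlap at 1 of the 11 in the lower and 2 in the higher direction, where 4.57% and 6.01% of all promoters met the condition. TNFAIP3, an inhibitor of NF-κB signalling, was at 91.9, 82.8 and 83.9 in the Parental and at 82.2, 71.0 and 77.5 in the SAP30-KO1 libraries (difference −9.29). NFKBIZ, an inducible cofactor of NF-κB, was at 87.5, 64.5 and 77.5 in the Parental and at 91.0, 98.3 and 91.3 in the SAP30-KO1 libraries (difference 17.1). JAK1, a kinase of gp130 signalling, was at 70.3, 67.3 and 88.3 in the Parental and at 91.5, 93.4 and 89.3 in the SAP30-KO1 libraries (difference 16.0). In each case the nearest libraries of the groups were within a few percentile points, and JAK1 lies on arm 1p with a median difference of 5.28. With percentiles taken within each arm the JAK1 groups overlapped (difference 11.8). None of the 6 promoters named in these lists passed adjustment over all promoters (exact permutation test, two-sided, p = 0.1 and adjusted p = 0.945 for each).

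**Figure D5:**
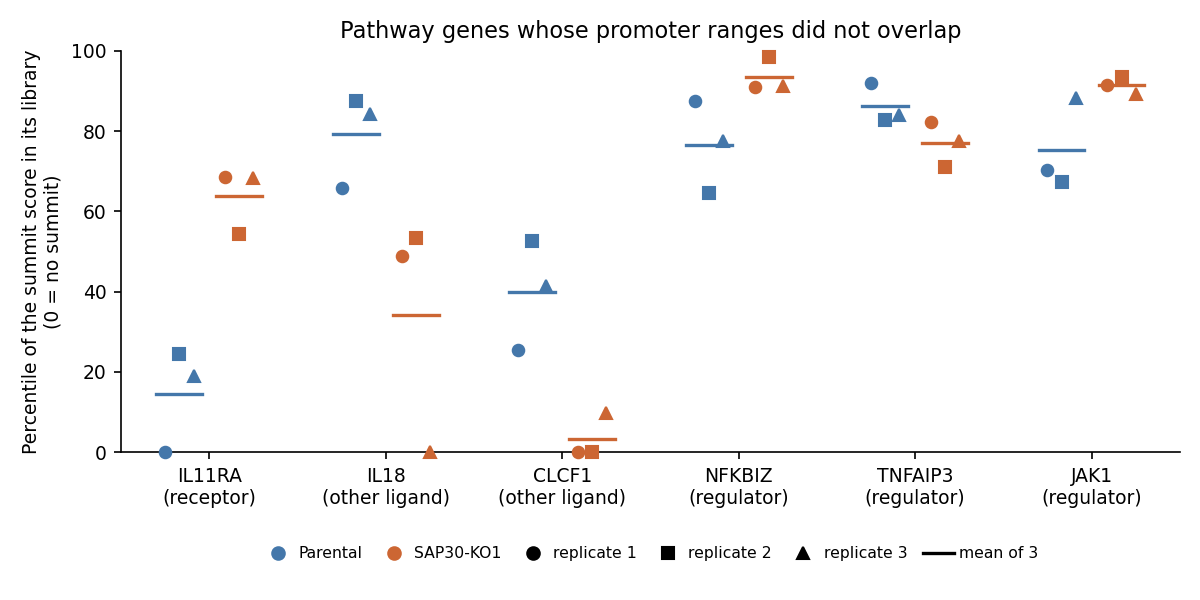
Promoter percentile in each library for the 6 receptor, ligand and regulator genes whose groups did not overlap. Axes, colours, marker shapes and mean bars follow the plot of the 10 members' promoters. SAP30-KO1 was lower at IL18, CLCF1 and TNFAIP3 and higher at IL11RA, NFKBIZ and JAK1.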

How the data were processed

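The authors sequenced single-end 75-base ATAC-seq reads, trimmed them (Trim Galore 0.4.5), aligned them to hg19 (bowtie2 2.3.3.1), removed duplicates (Picard) and called peaks (MACS2 2.1.0) at a q-value of 0.05. Transposase offset, blacklisted regions and mitochondrial reads are not mentioned in the sources used here, where the offset would displace summits by a few bases only. The deposited lists hold 1 summit per peak with the −log10 of its q-value, as read from lowest scores of 1.31 to 1.33, and no read counts, so no counting error can be given. All summits fell inside GRCh37 chromosome lengths. The study counts its replicates as biological samples or experiments, and whether these were separate cultures is not given, so p-values measure the spread between these libraries.

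Genes came from GENCODE v44lift37. Summit windows of 501 bp were merged into sites. Every gene and site was tested with the exact permutation test over 20 assignments, with Benjamini-Hochberg adjustment over all promoters or sites. Promoters and sites were named mainly if the groups did not overlap or if they were the highest of their gene or list. Others were added for context, among them further CSF2 sites and the second CXCL8 site, which was picked for its motif matches. The members, lists and tests were chosen with earlier results of these data known. Alternatives were stricter scores, equal list lengths, other windows and scales, limma 3.58.1 (R 4.3.3), a replicate block and the removal of each library in turn. Python 3.11.15, numpy 2.4.6, pandas 2.3.3, scipy 1.17.1, Biopython 1.88 and matplotlib 3.10.9 were used. Scripts were tested on simulated data. The values of 1 marker gene are not reported here.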

Additional observations from a re-analysis of the deposited data

How the results depend on the processing

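Depth could not be read from the lists, and a site near a library's lowest scores can fall under the calling threshold, which limits CXCL1, IL6, LIF and IL1B most. The member promoters with non-overlapping groups numbered 0 in each direction under each other setting of score, list length, window and scale. They numbered 0 to 1 lower and 0 to 1 higher when a library was left out. Limma called 0 member promoters lower and 0 higher at an adjusted p of 0.05. Over all 12572 promoters it called 0 lower and 1 higher, so its count says little about the members. For the member sites, lower in SAP30-KO1 at 1 and higher at 2, the lower count was 0 with scores of at least 4, 0 with equally long lists and 2 with windows from 100 kb upstream, and the higher count was 1 with summit windows of 100 bp. Leaving out a library gave 1 to 3 lower and 2 to 5 higher. The extra calls without a library come with fewer values to overlap. Limma, added for sites after the data were seen, called 0 member sites lower and 0 higher at an adjusted p of 0.05 (66 and 133 over all sites). The IL6 site had an adjusted p of 0.0606, the LIF site 0.334 and the CSF2 site 0.499.

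Replicate numbers showed no pairing of the libraries at the 16314 sites with a summit in all 6 libraries. Deviations of same-numbered libraries correlated there at −0.018, −0.013 and −0.003. Whether same-numbered libraries were prepared together is not given. With the replicate block, limma called 0 member promoters and 0 member sites in either direction, and 0 over all promoters and sites. All 3 same-numbered differences had one sign at 1 promoter lower (CXCL1) and 1 higher (CXCL2), and at 2 sites lower and 5 higher, for which the smallest p of the sign-flip test is 0.25. The promoter difference changed sign when 1 library was left out for CXCL8 (−0.629 to 9.18), CXCL3 (−27.3 to 6.37) and CSF2 (−5.77 to 0.304, positive without Parental replicate 2). Among 153 values of single promoters and sites under alternatives, 134 kept their call and direction. Part of that count was fixed in advance. Removing a library cannot make separate groups overlap, and separate groups always have same-numbered differences of one sign. The upstream window length does not reach sites downstream of the start. For the promoters, a kept call meant only that none was made again. The difference in summits per library in the member windows moved by less than 1 SD under each alternative.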
